A study of Drosophila melanogaster with 14 samples.

Results

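The heads of fmn and control flies were compared over the light phase with 3 arrays per genotype, taken at ZT 4, ZT 8 and ZT 12, where ZT (zeitgeber time) is the number of hours since lights-on. These 6 arrays are all those labelled with these 3 times among the 14 arrays of the study, which covered ZT 0 to ZT 24 every 4 h with 1 array per genotype and time. Control flies were w1118, and fmn flies carry the fmn mutation of the dopamine transporter gene and had been backcrossed to the control background. According to the study, fmn was isolated in a y w stock. It also reports that the backcross apparently did not suffice to make the region of scb and DAT identical to the control. Both genotypes lived in 12 h light and 12 h dark cycles on standard food, and ZT 12 is the moment of lights-off. The RNA of an array was extracted from pooled heads of both sexes, which were separated from frozen bodies by shaking and sieving, so the spread between arrays of a genotype holds the time of day and the technical error together. The methods give a general age of 2 to 4 d after eclosion for male flies and none for the array pools, which held both sexes in numbers that are not given in the sources used here.

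Dopamine promotes waking in flies as it does in mammals. The dopamine transporter, encoded by DAT, takes released dopamine back into the neuron and thereby ends its action, and flies without it sleep little. The fly head holds brain, eye, fat body, muscle and cuticle, so an array of whole heads reads the transcripts of all of these tissues together. In such a pool, fewer cells of a type and less RNA per cell cannot be told apart.

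Signals of 18769 probe sets were available, and 8761 of them, with a signal of at least 100 on at least 3 of the 6 arrays, were compared. The 6 arrays had similar upper quartiles (75th percentiles of 569.6 to 588), and 8619 to 8896 probe sets per array reached a signal of 100. After conversion to log2 the 75th percentile of an array was subtracted from its values, and all differences below are fmn minus control on this log2 scale. The genotype labels were borne out by DAT, which was at 1.43 to 13.6 on the fmn arrays and at 471 to 562 on the control arrays. The time labels were borne out by the clock gene tim (timeless). It was at 1082, 5245 and 7868 on the control arrays of ZT 4, ZT 8 and ZT 12 and at 1073, 4015 and 8162 on the fmn arrays of the same times. Not every clock transcript ran alike in both genotypes. A probe set of cwo was at 259, 391 and 540 in control and at 346, 513 and 366 in fmn. Its second probe set differed by 0.57, 0.33 and 0.70 in the 3 pairs.

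Some of the 6 arrays stood apart from the others. The fmn array of ZT 4 carried transcripts of male abdominal organs and of the gut, and the fmn array of ZT 8 carried transcripts of the ovary and the gut. Of 31 accessory gland genes, 16 reached a signal of 100 on fmn ZT 4 and 0 on fmn ZT 8, and their summed signal was 9053 and 279 there, against 266 to 397 on the 11 arrays other than these and control ZT 0. Of 23 ovary genes, 0 reached 100 on fmn ZT 4 and 9 on fmn ZT 8, with summed signals of 273 and 6734 against 282 to 429. The control array of ZT 0, which is not among the 6, carried the accessory gland list at 9359 and the testis list at 5788.

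The most abundant of these transcripts belonged to digestive enzymes, seminal proteins and eggshell proteins. Jon65Aiv, a serine protease of the Jonah family that is made in the midgut, had a signal of 858 on fmn ZT 4 and 3465 on fmn ZT 8, against at most 12.9 on the 11 other arrays. EbpII, a component of the ejaculatory bulb, was at 2123 on fmn ZT 4 and at 2.92 on fmn ZT 8. Vm34Ca, a protein of the vitelline membrane of the egg, was at 4.37 on fmn ZT 4 and at 3289 on fmn ZT 8. Testis transcripts such as Mst98Ca (370.4) and betaTub85D (266), a tubulin of the male germ line, were raised on fmn ZT 4 and were at 15.5 and 28.5 on fmn ZT 8. Both fmn arrays therefore carried gut transcripts, with male organs on the one and female organs on the other.

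**Figure D1:**
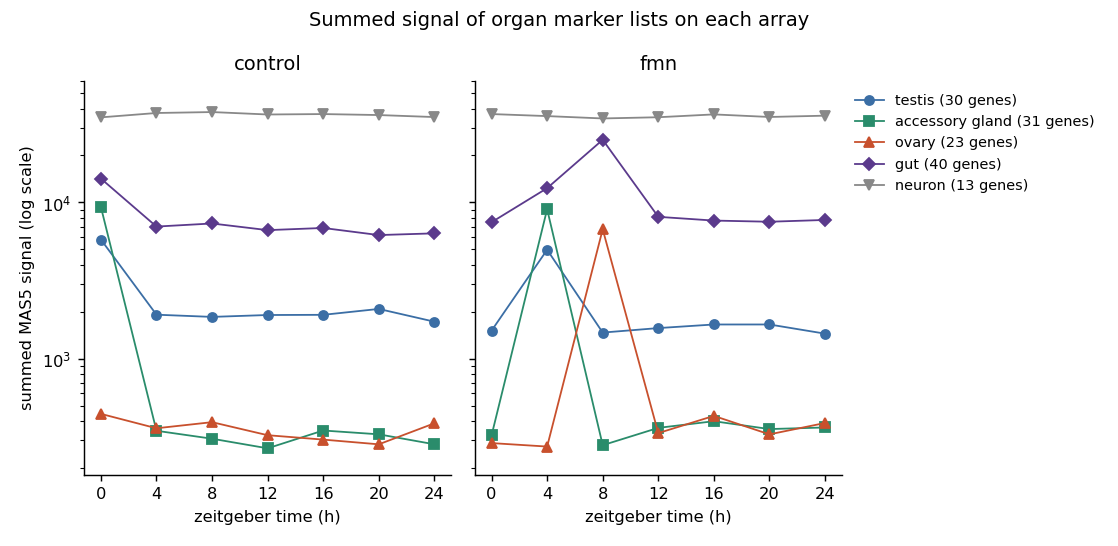
Summed MAS5 signal (log axis) of marker lists of abdominal organs and of neurons on each of the 14 arrays, against zeitgeber time in hours, with control arrays on the left and fmn arrays on the right. Each point is 1 array. The accessory gland list reached 9053 on fmn ZT 4 and the ovary list 6734 on fmn ZT 8, while the neuron list stayed near its level on the other arrays.

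In all, 182 probe sets had a signal of at least 100 and were at least 2-fold above every one of the 11 other arrays on fmn ZT 4 and 132 on fmn ZT 8, with 39 on both and 275 on either. The same rule found at most 1 probe set on any of those 11 arrays. Of the 275 probe sets, 172 were also raised on control ZT 0 and 263 were under 100 on all 11 other arrays, and only 10 passed the filter of the comparison. None of these 10 was counted as changed below, where limma gave the tests, and 6 of them were in the group that differed at ZT 4 and ZT 8 alone. These counts follow largely from the rules. The 263 could not reach 100 on 3 of the 6 arrays. The rule also placed fmn ZT 4 or ZT 8 at least 2-fold above the remaining fmn array of the light phase, which drives the pair differences apart. Whether smaller amounts of abdominal RNA affected the changed probe sets was not tested. The tubule list was not raised: 3 of its 8 genes reached 100 on fmn ZT 4, and the same number did on fmn ZT 8 and on control ZT 0. The summed signal of the neuron list was 35767 and 34547 on fmn ZT 4 and ZT 8, against 35172 to 37966 on the 11 other arrays, so that fmn ZT 8 lay a little under that range. Both arrays were under the range of the 11 others for the glia list (23788 and 23352 against 24746 to 30044) and for the phototransduction list (153673 and 157398 against 161204 to 201667).

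The fmn array of ZT 12 stood apart in another way. Its values deviated from the mean of the other 6 fmn arrays with an SD of 0.26 on the log2 scale, and each of the 13 other arrays deviated from the rest of its own genotype with an SD of 0.18 to 0.23. It had 81 probe sets at least 2-fold away from that mean, against 15 to 44 on the 13 others. Its summed accessory gland and ovary signals were 360 and 333, and its gut signal of 8091 was the highest of the 11 arrays without raised organ lists. Most of that gut signal came from Mal-B2 (5204) and Mal-A5 (2101), which were bright on all 14 arrays. Jon65Aiv and Jon65Aiii were at 12.9 and 5.51 on fmn ZT 12. The hybridization control bioC, a bacterial transcript added to every sample, split the 14 arrays into 7 with signals of 1246 to 1607 and 7 with 298 to 415. All 3 light-phase control arrays and fmn ZT 12 were in the brighter set, and fmn ZT 4 and ZT 8 were in the dimmer set. The ZT 12 pair thus lay within 1 set and the ZT 4 and ZT 8 pairs across the sets, and a fit with the set as a term is given with the last results.

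Of the 8761 probe sets compared, 77 (0.879%) were changed, which is an adjusted p under 0.05 in limma with the time point as a block together with a brighter genotype at least 25% above the dimmer one (the 25% threshold below). Of these, 39 (0.445%) were higher and 38 (0.434%) lower in fmn, and they name 69 genes. Their median fold was 1.81, 29 differed by at least 2-fold, and the smallest fold was 1.43. In all 77 the difference passed the 25% threshold in the same direction in each of the 3 pairs. The signals of the 3 fmn and the 3 control arrays did not overlap for 75 of the 77, and this was so for 26.6% of all probe sets compared. Without the block 140 probe sets were changed, 65 of the 77 among them, and with no filter on dim probe sets 0 of 18769 were changed by limma, with 1523 at an unadjusted p under 0.05. With centring on the median of each array 257 were changed, of which only 78 were higher (30.4%, against 50.6% with the 75th percentile), and this centring moved the median difference of all probe sets from -0.03 to -0.14.

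DAT had the largest fall. Its signals were 562, 471 and 539 on the control arrays of ZT 4, ZT 8 and ZT 12 and 1.43, 13.6 and 3.93 on the fmn arrays of the same times. All 3 fmn signals were far under the lowest control signal, and all 3 were also under 100, where MAS5 values carry little information. Taking 100 as the fmn level gives a fall of at least 5.23-fold, and the fitted difference was -6.97 ± 0.63 (SE, 3 pairs, limma adjusted p = 0.0248). Of the 11 dopamine genes compared, only DAT was changed, beside 0.879% of all probe sets compared. The next in size was e (ebony), which encodes an enzyme that conjugates biogenic amines and which was at 317, 254 and 228 in control and at 250.4, 177 and 174 in fmn, a difference of -0.44 ± 0.07 that did not pass the test (limma adjusted p = 0.0764). Tyrosine hydroxylase (ple) and the receptors Dop1R1 and Dop2R differed by -0.17, 0.12 and 0.13, and their limma adjusted p values were 0.405, 0.461 and 0.330.

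The next largest negative difference was that of the probe set of scb (scab), which encodes an alpha integrin. According to the study, the fmn strain carries base substitutions where this probe set reads the transcript, and RT-PCR of the reading frame found no difference, so the signal is not a measure of the scb mRNA level in fmn. Its signals were 463, 515 and 460.4 in control and 78.8, 57.1 and 38.8 in fmn, without overlap. The difference was -3.12 ± 0.19 (limma adjusted p = 0.0107), or a signal at least 4.79-fold lower when set against 100. Of the 16 integrin and adhesion genes compared, the scb probe set alone was counted as changed, and the median difference of the list was -0.01 (0.02 without scaling), against -0.03 over all probe sets. A fall was also measured for dlg1 (discs large), a scaffold protein of synapses and epithelia, in 2 of its 3 probe sets (-0.68 and -0.63), while the other probe set differed by 0.21. Among 54 genes of axon guidance and cell recognition 1 was lower, dpr13 (183, 151 and 181 in control, 113, 110.3 and 110.5 in fmn), a cell surface protein of the immunoglobulin family. For both lists, the share changed over all probe sets compared was 0.879%.

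The NMDA receptor subunit Nmdar1 and the calcineurin genes CanA-14F and CanB did not pass the test in the light. The study singled these genes out from all 14 arrays, these 6 included, so their direction here is not independent evidence. Nmdar1 was at 497, 514 and 550.3 in control and at 412, 499.9 and 349 in fmn, so that the ZT 8 arrays were nearly equal and the difference of -0.35 ± 0.12 rested mainly on ZT 12 (limma adjusted p = 0.188). CanB, the regulatory subunit of calcineurin, was lower on each fmn array (5141, 4740 and 5698 against 6455, 6191 and 6187), with a difference of -0.30 ± 0.09 (limma adjusted p = 0.147). CanA-14F, a catalytic subunit, has 2 probe sets that gave -0.17 and -0.49, neither past the test (limma adjusted p = 0.314 and 0.103). At ZT 0, ZT 16, ZT 20 and ZT 24 the mean difference of Nmdar1 was -0.44 (-0.58 to -0.22). That of CanB was -0.34, and those of the CanA-14F probe sets were -0.29 and -0.54. The study also used these arrays to choose the genes.

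Nazo, which is known for a role in antiviral defence in the fly, had the largest fitted difference among the genes that rose, but not the largest bound. It was at 2.30, 0.814 and 1.75 in control and at 219, 336 and 122 in fmn, which is at least 2.08-fold higher against a signal of 100. The fitted difference of 7.11 ± 0.49 (limma adjusted p = 0.0124) depends on control values that are close to 0, and by its bound the rise was smaller than that of CG7900 (at least 5.85-fold). The ZT 12 array had the lowest fmn signal for Nazo, yet it was far above all 3 control arrays.

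The rises of CG7900, CG4757 and Cyp4p1 followed. The uncharacterized gene CG7900 was at 75.2, 73.2 and 89.0 in control and at 543, 648 and 569 in fmn, at least 5.85-fold higher against a signal of 100. CG4757 was at 105, 211 and 95.7 in control and at 849.7, 993 and 961 in fmn, with the ZT 8 control array about double the other 2 controls and still well under every fmn array. Cyp4p1, a cytochrome P450, was much brighter, at 1013, 1047 and 871 in control and at 4711, 4305 and 3997 in fmn. Its difference of 2.13 ± 0.08 (limma adjusted p = 0.00237) was of similar size in the pairs, with 2.19 at ZT 4 and 2.20 at ZT 12.

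Structural and nuclear genes were among the rises as well. The alpha tubulin gene alphaTub84D was at 79.2, 76.4 and 75.2 in control and at 396, 407 and 237 in fmn, and the ZT 12 array was again the lowest of the fmn arrays. Acf, which encodes part of an ATP-dependent nucleosome remodeller, was at 132, 126 and 163 in control and at 527, 546 and 539.8 in fmn, a difference of 1.92 ± 0.09. A probe set of jim, a zinc finger gene, was at 296, 324 and 273 in control and at 1205, 1160.1 and 1047 in fmn, a difference of 1.91 ± 0.07. The other 2 probe sets of jim differed by 0.48 and 0.09 and were not changed, so the rise holds for 1 of 3 probe sets of that gene.

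Cry, the drosocrystallin of the corneal lens, rose in every pair. Its signals were 359, 345 and 322 in control and 1209.7, 1080.2 and 1014 in fmn, a difference of 1.66 ± 0.07. It was the only one of 4 corneal lens genes to change, beside 0.879% of all probe sets compared. Ugt35C1, a glycosyltransferase of the detoxification family, was at 205, 174 and 209.6 in control and at 589, 548 and 622 in fmn. CG30098 was at 93.3, 82.1 and 82.2 in control and at 224, 251 and 228 in fmn, with no overlap. The limma adjusted p values of these 5 genes from Acf to CG30098 lay between 0.00237 and 0.0109.

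**Figure D2:**
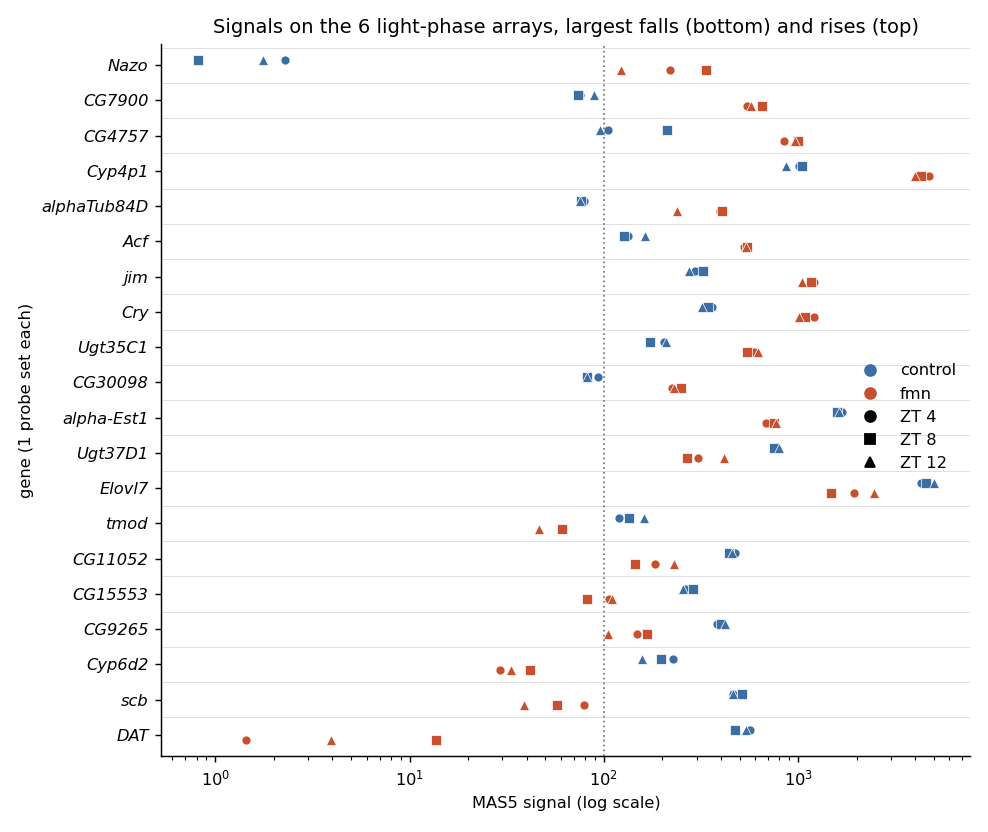
MAS5 signal (log axis) of the 10 largest falls and the 10 largest rises among changed genes, 1 probe set each. Each symbol is 1 array, with control in blue and fmn in orange, and the shape gives the time (circle ZT 4, square ZT 8, triangle ZT 12). The dotted line marks a signal of 100, and the fmn and control symbols of each gene are apart.

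Several falls were of metabolic enzymes. Cyp6d2, another cytochrome P450, was at 226, 196 and 157 in control and at 29.2, 41.6 and 33.2 in fmn, at least 1.91-fold lower against a signal of 100. Elovl7, an elongase of long-chain fatty acids, was the brightest of the 10 largest falls, at 4309, 4537 and 4983 in control and at 1940.1, 1479 and 2446 in fmn. Its difference was -1.29 ± 0.13 (limma adjusted p = 0.0308), with the smallest size at ZT 12 (-1.02).

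Ugt37D1, a glycosyltransferase, and alpha-Est1, a carboxylesterase, fell by similar amounts. Ugt37D1 was at 750.4, 753 and 799 in control and at 304, 268 and 416 in fmn, and alpha-Est1 was at 1675, 1577 and 1621 in control and at 679, 755 and 769 in fmn. Every fmn signal of both genes was under every control signal. A probe set of tmod, the tropomodulin that caps actin filaments, was at 119, 135 and 159.9 in control and at 61.8, 61.0 and 46.2 in fmn (-1.32 ± 0.16, limma adjusted p = 0.0492), which is at least 1.37-fold lower against a signal of 100. A second probe set of tmod differed by -0.10 only.

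The uncharacterized genes CG9265, CG15553 and CG11052 complete the largest falls. CG9265 was at 380.4, 399 and 422 in control and at 148, 167 and 104 in fmn. CG15553 was at 262, 289 and 255 in control and at 106, 81.6 and 109.6 in fmn. CG11052 was at 472, 439 and 454 in control and at 182, 145 and 229 in fmn, so that in all 3 genes the groups were well apart. The lowest fmn signal was that of ZT 12 for CG9265 and that of ZT 8 for the other 2.

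Changed genes of detoxification went in both directions. Of 51 cytochrome P450 genes compared, 1 rose (Cyp4p1) and 1 fell (Cyp6d2), and of 15 UDP-glycosyltransferase genes 1 rose (Ugt35C1) and 1 fell (Ugt37D1). Of 11 esterase genes 1 fell (alpha-Est1), and of 27 glutathione S-transferase genes none was changed. The median differences of these 4 lists were 0.05, 0.09, -0.06 and -0.03, beside -0.03 over all probe sets compared, and the first 2 turned to -0.06 and -0.02 with centring on the array median. Counts of 0 to 2 in lists of this size are small, and with 0.879% of all probe sets changed they describe single genes and not the families.

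Genes of other metabolic lists were also changed singly, beside 0.879% of all probe sets compared. ry (rosy), the xanthine dehydrogenase that makes urate, rose from 462 to 509 in control to 918 to 1066 in fmn (1.02 ± 0.07, limma adjusted p = 0.0143) and was the 1 changed gene of 12 in purine metabolism. Gld, a glucose dehydrogenase, fell from 563 to 751 in control to 289.9 to 337 in fmn, and was 1 of 23 genes of sugar metabolism. Of 22 genes of amino acid metabolism, Sardh, the sarcosine dehydrogenase, rose by 0.69 ± 0.08 and Got1, a glutamate oxaloacetate transaminase, fell by 0.70 ± 0.07. Gnmt, which makes sarcosine, was higher in each pair (0.62, 0.89 and 1.84), but its spread left it short of the threshold (limma adjusted p = 0.102).

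Npc2g and Npc2h, neighbouring genes of the sterol-binding NPC2 family, moved in opposite directions. Npc2g was at 5406, 5284 and 5651 in control and at 10915, 11098 and 10946 in fmn, a difference of 0.99 ± 0.06 (limma adjusted p = 0.0110) with almost the same size in each pair. Npc2h was at 3958, 3433 and 3593 in control and at 1996, 1695 and 2160.4 in fmn, a difference of -0.94 ± 0.09. Both are abundant transcripts, and neither gene's groups overlapped.

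Odorant-binding proteins, which carry odours and other small molecules in the antenna and elsewhere, gave 1 changed gene of 23, beside 0.879% of all probe sets. Obp83cd was at 260.4, 253 and 218 in control and at 672, 453 and 607 in fmn (1.20 ± 0.14, limma adjusted p = 0.0452). Obp83ef, Obp99a and Obp99b were higher and Obp19b and Obp99d lower by at least the 25% threshold in each pair without passing the test, and with Obp83cd these were 6 of 23, beside 3.05% of all probe sets. The stress gene TotB rose from 84.0 to 133 in control to 179 to 245 in fmn and the small heat shock gene Hsp23 from 553 to 645 to between 943 and 1122. The cuticle gene Cpr11B fell from 397 to 485 to between 203 and 247.

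Of 21 phototransduction genes compared none was changed (limma) and 6 passed the 25% threshold in no pair, against 63.7% of all probe sets. The median difference was -0.30, beside -0.03 over all probe sets. The median was -0.31 at ZT 4, -0.33 at ZT 8 and -0.23 at ZT 12, and it was -0.17 over the 4 other times. Rh6, an opsin, and inaC and inaD, parts of the signalling complex of the photoreceptor, were the 3 that passed the 25% threshold downwards in each pair, as did 1.51% of all probe sets. Rh6 was at 12300, 14480 and 15845 in control and at 8423, 8515 and 12461 in fmn, where the fmn array of ZT 12 overlapped the control range. Under quantile normalization the median of the list was -0.14. The summed signal of the list was lowest on fmn ZT 4 and ZT 8, the arrays with abdominal transcripts, whose part in this difference was not tested.

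Transcripts of cytosolic ribosomal proteins had a median difference of -0.26 over 32 genes, but 0.00 under quantile normalization, and none was changed. Among proteins of fat body, the yolk proteins Yp1, Yp2 and Yp3 were lower in each pair (-0.45, -0.43 and -0.44 in the mean) and the larval serum proteins Lsp1beta and Lsp2 higher (1.12 and 1.52), all short of the threshold, with limma adjusted p between 0.0683 and 0.104. Yolk protein genes are expressed in females only, so their level also follows the share of female heads in a pool, and the sex ratio was not tested. The 26 proteasome genes had a median of 0.05 (-0.06 with centring on the array median), and none passed the 25% threshold in any pair.

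The changed genes were not spread evenly over the chromosome arms. With genes placed by their order in the reference annotation, 29 of 1806 genes compared on 3R (1.61%) and 22 of 1478 on 2R (1.49%) were changed, against 4 of 1300 on 2L (0.308%), 4 of 1366 on 3L (0.293%), 9 of 1203 on X (0.748%) and 0 of 59 on chromosome 4. Of 68 placed genes, 37 lay in 7 runs of at least 3 changed genes in which neighbours in the run were at most 50 genes apart. The spans of these runs held 280 (3.88%) of all genes compared. As the window was chosen after the positions had been seen, these counts are a description with no test.

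The longest run, on 3R, held Gld, alphaTub84D, alpha-Est1, CG2641, Elovl7, CG11052, CG7900 and Nazo within 112 genes, of which 3 rose and 5 fell. A second run on 3R held CG14694, SelR, CG4596, Ugt35C1, CG4757 and CG17726 within 42 genes, and another on 3R held CG15535, tmod, Npc2g, Npc2h, CG15550 and CG15553 within 82. On 2R, scb lay 177 genes from DAT in a run with Erasp, CG8401 and Got1, and CG30098 lay 21 genes from DAT. Cyp4p1 was in a run of 5 with Non1, Pdk, CG1827 and Mmp2. Each of the 7 runs held both rises and falls, and several of the largest differences of the light phase (the scb probe set, CG7900, CG4757, Cyp4p1 and Nazo) lay inside them. The study describes the false difference of scb as a problem of this type of array. Whether sequence differences also affect the signals of other changed probe sets was not tested.

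The differences of the light phase were compared with those of the 4 other pairs (ZT 0, ZT 16, ZT 20 and ZT 24), whose arrays were not used to select them. Of the 77 changed probe sets, 71 had the same direction in each of the 4 other pairs, and 56 passed the 25% threshold in each. Among probe sets past that threshold in a single light pair, 31.5% (ZT 8) to 37.3% (ZT 4) also kept 1 direction in those pairs. The median size was 0.85 in the light and 0.79 at the other times. A fit on the 4 other pairs alone found 758 changed probe sets (8.65%), of which 65 were changed in the light, which is 84.4% of the light-phase set and 8.58% of the other. The difference of DAT was -6.97 in the light and -5.88 at other times, that of the scb probe set -3.12 and -2.72, and that of Cyp4p1 2.13 and 1.99.

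**Figure D3:**
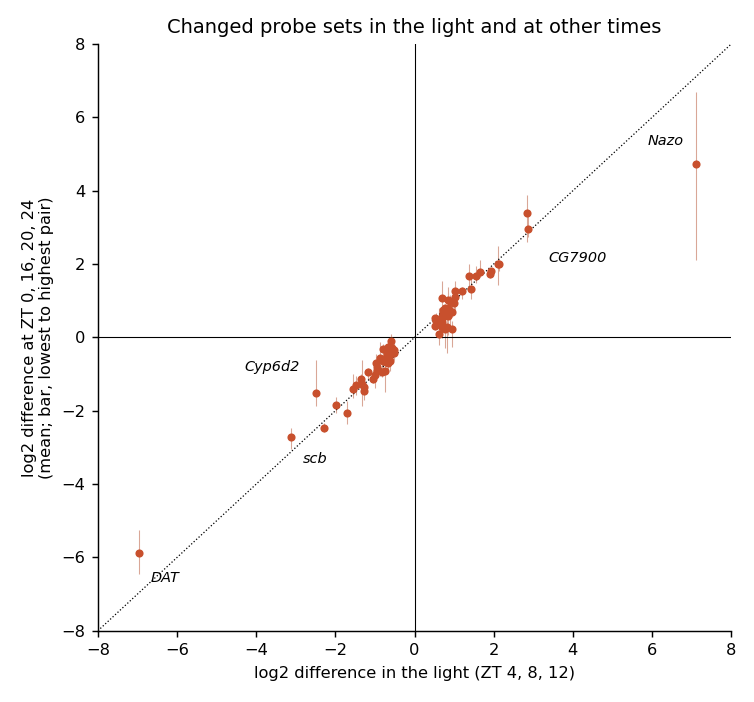
Log2 difference between fmn and control of the 77 changed probe sets in the light (x axis, mean of ZT 4, ZT 8 and ZT 12) and at ZT 0, ZT 16, ZT 20 and ZT 24 (y axis, mean of the 4 pairs, with bars from the lowest to the highest pair). The dotted line marks equal differences, and most points lie near it.

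Whether the effect of genotype in the light differed from that at other times was tested with an interaction over all 14 arrays. No probe set passed (0 of 8761 in limma, with 471 or 5.38% having an unadjusted p under 0.05; the adjusted p was 0.768 or more). The 3 with the smallest p were a probe set of pHCl-1, a pH-sensitive chloride channel (-0.23 in the light and 0.52 at other times), TH1, a subunit of the NELF complex (-0.41 and 0.27), and CG14968 (0.08 and -0.47). Their limma adjusted p values were each 0.768. Of the 77 changed probe sets, 12 had an unadjusted interaction p under 0.05. With centring on the median of each array, 37 probe sets passed.

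The probe sets were then sorted by which of the 3 pairs carried the difference. Past the 25% threshold in 1 direction in all 3 pairs were 267 (3.05%), 135 of them higher (1.54%) and 132 lower (1.51%). At ZT 4 and ZT 8 but not at ZT 12 were 397 (4.53%), and at ZT 12 alone 794 (9.06%). At ZT 4 alone were 434 and at ZT 8 alone 736, while 5583 passed it in no pair. The differences of the ZT 4 and ZT 8 pairs correlated across probe sets with r = 0.70, those of ZT 4 and ZT 12 with r = 0.46 and those of ZT 8 and ZT 12 with r = 0.36, as a description in which probe sets are not independent.

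The 3 groups behaved differently in the 4 pairs that had not been used to sort them. The 267 probe sets of all 3 pairs had a median difference in their own direction of 0.50 at the other times, and 231 kept 1 direction in all 4 pairs. Those of ZT 4 and ZT 8 alone had a median of 0.33 at other times (0.29, 0.39, 0.31 and 0.34 at ZT 0, ZT 16, ZT 20 and ZT 24), and 286 kept 1 direction. Their median of 0.10 at ZT 12 is low through the sorting, which required that pair to miss the threshold. Likewise, the group of ZT 4 and ZT 12 alone had 0.15 at ZT 8 and 0.28 at the 4 other times. That of ZT 8 and ZT 12 alone had 0.17 at ZT 4 and 0.22 at the 4 other times. Those of ZT 12 alone had a median of 0.10 at other times and 267 of the 794 kept 1 direction. The groups that passed at ZT 4 alone or at ZT 8 alone were close to that of ZT 12 alone, with medians at the 4 other times of 0.14 for ZT 4 alone and 0.11 for ZT 8 alone, and with 162 of 434 and 232 of 736 in 1 direction. A small difference at the other times was therefore shared by every group that passed in a single pair.

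**Figure D4:**
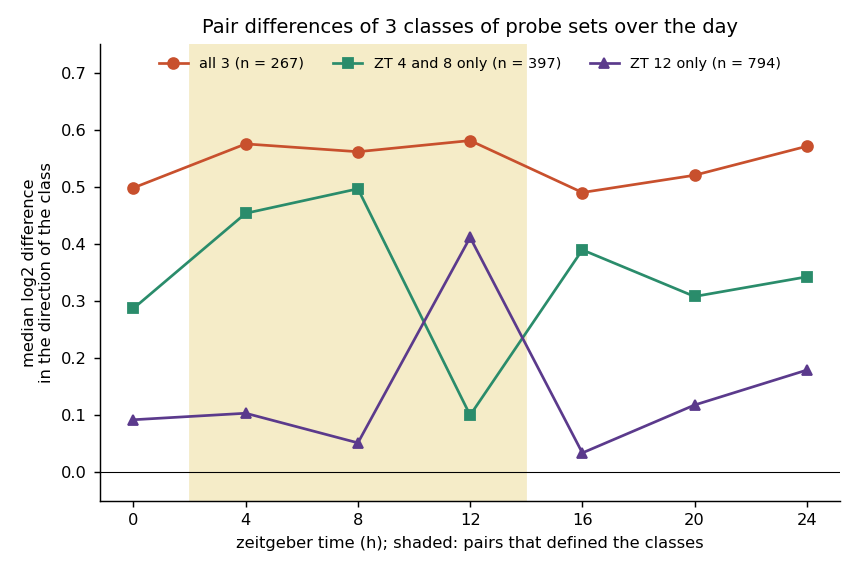
Median log2 difference between fmn and control, taken in the direction of each group, at the 7 time points (x axis, h) for probe sets past the 25% threshold in all 3 light pairs, at ZT 4 and ZT 8 only, and at ZT 12 only. The shaded pairs defined the groups. The line of ZT 4 and ZT 8 only is at 0.10 at ZT 12, which the sorting keeps low, and at 0.39 at ZT 16.

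The 6 largest differences of ZT 4 and ZT 8 alone included transcripts of other organs. Cyp4g1, a P450 of hydrocarbon synthesis that is abundant in oenocytes of the abdomen, was at 3791 and 2570 on fmn ZT 4 and ZT 8 and at 114 on fmn ZT 12, with 65.8, 41.7 and 127 in control. On control ZT 0 it was at 4310 and on the other 7 arrays between 29.3 and 88.0. CG10472 (451 and 905 on fmn ZT 4 and ZT 8, 107 on fmn ZT 12, 91.5 to 100.3 in control) and the digestive maltase Mal-A1 (583, 217 and 154 in fmn, 148 to 179.7 in control) were raised on the same arrays. CG17378 was at 163, 172 and 114 in fmn and at 52.7, 73.5 and 113 in control, where the ZT 12 arrays were nearly equal. A second probe set of CG17378 differed by 0.03, -0.13 and -0.14 in the 3 pairs.

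The other 2 of these 6, heph and scaf6, differed in the same direction at the other times. heph, a polypyrimidine tract-binding protein that regulates splicing, was at 506, 548 and 295 in fmn and at 223, 239 and 265 in control, and its mean difference at the 4 other times was 1.08. scaf6 was at 187, 225 and 476 in fmn and at 473, 519 and 524 in control, with a mean difference of -1.13 at the other times. For both genes the fmn array of ZT 12 lay near the controls. The other probe sets of scaf6 differed by -0.34 and -0.05 in the light.

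At ZT 12 alone, most of the largest differences were falls on the fmn array of ZT 12, which was not so for the group as a whole. A probe set of mnb (minibrain), a protein kinase of brain development, was at 665, 694 and 192 in fmn and at 536, 625 and 575 in control. aqz was at 4171, 4409 and 2028 in fmn against 4122, 4309 and 4600.1 in control, and mirr, a homeobox transcription factor, was at 110.3, 113 and 47.0 against 99.3, 116 and 104. stol was at 133 on fmn ZT 12 against 261 on control ZT 12, and it was higher in fmn at ZT 4 and ZT 8 (0.26 and 0.23). kek1, a transmembrane protein of the kekkon family, was at 183 against 350.0 at ZT 12, and its differences at ZT 4 and ZT 8 had the same sign but a smaller size (-0.26 and -0.21). CG4325 was the exception, with 139 in fmn and 70.9 in control at ZT 12. Its control signals at ZT 4 and ZT 8 were 111 and 123, so the control array of ZT 12 was the low one. The second probe sets of mnb and aqz differed by 0.24 and -0.05 at ZT 12. In these genes 1 of 2 probe sets thus carried the fall. Of all 794 probe sets of ZT 12 alone, 449 were higher and 345 lower in fmn. Taken in the direction of the group, the median deviation from the neighbouring times of the same genotype was 0.17 for fmn ZT 12. For control ZT 12 it was -0.22, so in the median the control array deviated at least as much as the fmn array.

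A further 68 probe sets (0.776%) passed the 25% threshold in 1 direction at ZT 4 and ZT 8 and in the opposite direction at ZT 12. Of these, 53 were higher and 15 lower at ZT 4 and ZT 8, and they name 50 genes. The sorting gave ZT 4 and ZT 8 the same direction. In 56 of the 68 the 4 other pairs all had that direction too. In the group of ZT 4 and ZT 8 alone, 286 of 397 kept 1 direction in those 4 pairs. Each pair was then compared with its 6 others over all probe sets. The ZT 12 pair was opposite to the 6 others, all past the 25% threshold, in 34 probe sets, and every other pair was so in 0. Where 6 pairs passed the threshold and the pair left over did not, that pair was ZT 12 in 93 cases and any other pair in 10 to 23 each.

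The members of this group, which are named here after their values were seen, include genes of neurons and of cell signalling. They do not stand for neuronal genes in general. The 12 genes compared of the neuron list had median differences of -0.17 at ZT 4, -0.25 at ZT 8 and -0.03 at ZT 12. ftz-f1, a nuclear receptor, was at 1273 and 1532 on fmn ZT 4 and ZT 8 and at 173 on fmn ZT 12, with 482, 486 and 563 in control, and its differences at ZT 0, ZT 16, ZT 20 and ZT 24 were 1.09, 1.49, 1.57 and 1.23. elav, the RNA-binding protein of neurons, was at 2335, 2265 and 612 in fmn and at 1009.5, 1006 and 1108 in control. cpx (complexin), which acts in synaptic vesicle release, was at 3378, 3462 and 709 in fmn and at 1205, 1307 and 1146 in control. In these 3 the fmn array of ZT 12 was below all controls, and the other fmn arrays of the light were above them.

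The same pattern was seen in mbl (muscleblind), a splicing regulator (280.5, 265 and 49.5 in fmn, 134, 102 and 114 in control) and in Nrg (neuroglian), a neural adhesion molecule (1533, 1456 and 455 in fmn, 866, 698 and 787 in control). Opposite in sign were kibra, a regulator of the Hippo pathway, with 17.6, 28.3 and 139 in fmn and 104, 102 and 101 in control, and SK, a calcium-activated potassium channel, with 1685, 1222 and 2921 in fmn and 2885, 2510 and 2306 in control. For SK and kibra the ZT 12 array was thus the highest of all 6.

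Several genes were reversed in more than 1 probe set, with mbl in 3, and Nrg, SK and Dscam2 in 2 each, but most other probe sets of these genes were not. Of the 50 genes, 19 had probe sets outside this group among those compared, 24 in all. Of these 24, 4 passed the 25% threshold at both ZT 4 and ZT 8 and 10 passed it in no pair. Among the 4, those of Nrg (-0.65 and -0.41) and pyd (-0.60 and -0.39) were opposite at ZT 4 and ZT 8 to the reversed probe sets. Those of tow and cwo had the same direction there. The second probe set of cpx differed by 0.04, 0.21 and 0.17 in the 3 pairs, and that of egh, a glycosyltransferase gene, by 0.20, 0.09 and 0.00. The second probe set of kibra gave 0.04, -0.38 and -0.35. The ratios of 3′ to 5′ control probe sets on fmn ZT 12 were 5.90 for Act5C, 2.41 for Gapdh and 2.78 for eIF4a. All were within the range of the 13 other arrays, but the eIF4a ratio was above those of the other fmn arrays (2.38 to 2.62). fmn ZT 20 and ZT 24 were in the same bioC set as fmn ZT 12, but their control arrays were in the other set. The ZT 16 pair lay within the dimmer set, so no other pair had both arrays in the brighter set. The cause of the reversal was not tested.

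**Figure D5:**
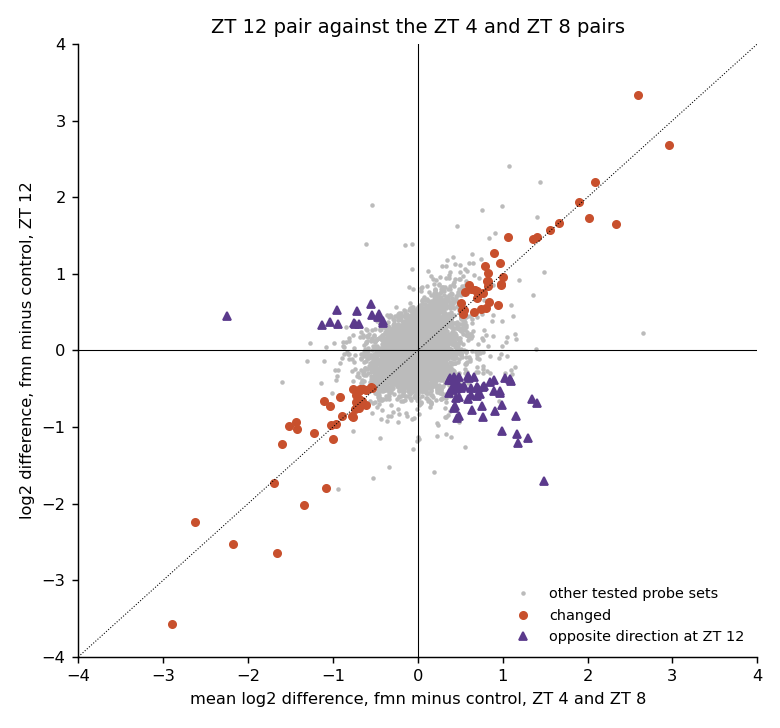
Log2 difference between fmn and control at ZT 12 (y axis) against the mean difference at ZT 4 and ZT 8 (x axis) for the probe sets compared. Orange circles are the 77 changed probe sets and purple triangles the 68 with the opposite direction at ZT 12, and 3 probe sets lie outside the axes. Changed probe sets follow the dotted line of equal differences, and the triangles lie in the other quadrants.

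Leaving out the ZT 12 pair raised the number of changed probe sets from 77 to 467 (5.33%), with 195 higher and 272 lower, and all 77 were among them. Of the 467, 197 had a ZT 12 difference under 0.25 of their mean at ZT 4 and ZT 8, and 135 had the opposite sign at ZT 12. In the 4 other pairs, 50 to 65 were under 0.25 and 27 to 41 had the opposite sign, and 386 of the 467 had the same direction in all 4. Leaving out the ZT 4 pair gave 17 changed probe sets and leaving out the ZT 8 pair 28. With all 7 pairs in 1 fit, which takes the spread from 14 arrays, 501 were changed in the light, 75 of the 77 among them, and with the bioC set as a further term 353, with 71 of the 77.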

How the data were processed

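Total RNA from pooled heads was labelled with biotin and run by the authors on the Affymetrix Drosophila Genome 2.0 array. They deposited 1 MAS5 signal per probe set and array, which is a linear intensity. Its software version and scaling target are not given in the sources used here, and arrays have no read depth, so that their number limits the precision. Control probe sets were left out. The platform annotation gives 1 gene for 13646 of the other 18769 probe sets, 402 several and 4721 none, of which 55 were named through a supplementary table of the study, used for names only. Current symbols and the order of genes came from the reference table of Release 6, and 13543 probe sets were found there.

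Log2 signals were centred on the 75th percentile of each array. Probe sets with a signal of at least 100 on at least 3 of the 6 arrays (8761) were fitted with limma 3.58.1 in R 4.3.3 (lmFit and eBayes), with the time point as a block, and p-values were adjusted by Benjamini-Hochberg. With 3 pairs the residual degrees of freedom are 2, and p-values measure the spread of the pair differences over 3 times. On simulated data of this design, 17 of 67 probe sets with a 25% change were recovered over the 8761 fitted, 60 of 67 at 1.5-fold and 67 of 67 at 2-fold. Recovery here means an adjusted p under 0.05 in limma in the right direction, without the 25% threshold. The simulated noise was independent between arrays and held no array that stood apart, so these counts do not give the recovery in the measured data. The arrays of a time point deviated together with correlations of 0.42, 0.05 and 0.18 at ZT 4, ZT 8 and ZT 12. The interaction of genotype with light used all 14 arrays.

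Named genes were DAT, scb, Nmdar1, CanA-14F and CanB, the 10 largest rises and falls that name 1 gene, up to 4 changed members of each gene list, the 6 largest of each single-array group, the brightest organ markers and the 3 smallest interaction p values. Members of the runs along the arms, of the reversed group and of lists without calls were named after their values were seen. A gene in a list is given by its brightest probe set. The members, lists and thresholds were chosen with earlier results of these data known. Alternatives changed the block, the scaling, the filter, a pseudocount of 32, the error estimate, the thresholds and the arrays used. The fit with the bioC set (above or below a signal of 800) was added after the data were seen.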

Additional observations from a re-analysis of the deposited data

How the results depend on the processing

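Of 77 changed probe sets (39 higher, 38 lower), the count moved by over 1.5 times in most alternatives. It was 140 (65 higher, 75 lower) with no replicate block, that is, without the pairing by time, 501 (221 and 280) with the spread over all 7 pairs, 353 (205 and 148) with the bioC set as a further term, 257 (78 and 179) with median scaling, 50 (25 and 25) with quantile normalization, 135 (68 and 67) with the pseudocount, 399 (175 and 224) with an intensity trend and 384 (166 and 218) at an adjusted p under 0.10. Without the block and without fmn ZT 12 it was 469 (171 and 298). With no filter it was 0 (0 and 0) over 18769 probe sets. Of these, 1523 had an unadjusted limma p under 0.05, against 1982 of 8761 with the filter. Leaving out 1 pair gave 17 to 467 changed, 10 to 195 higher and 7 to 272 lower. Without scaling, with a signal of 100 on all 6 arrays, with a filter over 14 arrays and with no fold threshold, no count moved by over 1.5 times. Of the 31 named changed probe sets, 31 stayed changed with median scaling, 30 without the block, 28 without scaling, 24 with quantile normalization, 14 without the ZT 4 pair, 20 without the ZT 8 pair, 31 without the ZT 12 pair and 0 with no filter, and none changed direction in any of these. Probe sets shared by all 3 pairs were 73 at a fold of 1.5, 4080 by sign alone and 267 at the threshold used. The interaction with light gave 37 calls with median scaling and 0 in the other alternatives. The causes of these shifts were not tested. MAS5 signals under 100 limit the folds of 11 changed probe sets to bounds.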
